A study of Bos taurus with 3 samples.

Results

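The genes described here are 7 secreted host defence and acute-phase genes, SAA3, HP, LTF, LCN2, BPIFA2A, FCN1 and WFDC2, out of 27270 genes in the count matrices of the newborn calf rumen. They were taken by their symbols in the deposited gene tables, where each symbol stood in 1 row: SAA3 is ENSBTAG00000049589, HP is ENSBTAG00000006354, LTF is ENSBTAG00000001292, LCN2 is ENSBTAG00000014149, BPIFA2A is ENSBTAG00000009144, FCN1 is ENSBTAG00000048155 and WFDC2 is ENSBTAG00000013928. The samples were 3 Holstein calves, all newborn (1 day after birth), with 1 single-cell library of the rumen from each calf. They form 1 group, so the comparisons were made between cell classes and epithelial states of the same calves, with 3 animals as the replicates. An SE below comes from the fitted model and is not the spread of the differences between calves. Adult animals were not analysed here. The rumen is the fermentation chamber of the forestomach and is lined by a keratinised stratified squamous epithelium. The tissue had been stripped of its outer muscle layers and digested with trypsin and collagenases before the cells were captured.

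Secreted defence proteins act outside the cell. Some starve microbes of iron (lactoferrin, encoded by LTF, and lipocalin 2, encoded by LCN2), some bind haemoglobin or lipids during the acute phase (haptoglobin, encoded by HP, and serum amyloid A, encoded by SAA3), and some bind sugars or lipids on microbial surfaces (ficolin 1, encoded by FCN1, and the BPI-fold protein encoded by BPIFA2A, a major salivary protein of cattle). WFDC2 encodes a small protein with whey acidic protein domains, a fold shared with several secreted protease inhibitors. Acute-phase proteins are made in bulk by the liver, while SAA3, LCN2 and the BPI-fold and whey acidic protein families are known for local production at epithelia and in stroma.

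After filtering, 24042 barcodes were kept (4695, 9746 and 9601 in calves 1, 2 and 3), with a median of 10159, 6440 and 7372 unique molecular identifiers (UMIs, each standing for 1 captured mRNA molecule). Markers placed 21111 of them in an epithelial class, 1331 in an endothelial, 789 in a fibroblast (with myofibroblasts) and 810 in an immune class, and 1 was left unnamed. Calf 1 gave few cells outside the epithelium, with 77 endothelial, 22 fibroblast and 10 immune barcodes, and calf 3 gave 726 of the 810 immune barcodes. The libraries shared 21 to 37 barcode sequences pair by pair. A level below is the UMIs of a gene for every 10000 UMIs of all genes, summed over the cells of 1 calf in a class or cluster. A thinned share is the percentage of cells with at least 1 UMI of the gene after cells with at least 2000 UMIs were reduced to that number at random and shallower cells were left out, with exact 95% intervals that cover counting error only. The 7 genes and the related lists were left out of the genes that built the clusters.

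The 7 genes fell into 4 patterns of source (the plot of levels by cell class). SAA3 came mainly from fibroblasts, which held 729 of its 896 UMIs. HP and FCN1 came from immune cells, with 133 of 150 and 507 of 555 UMIs. BPIFA2A, LCN2 and WFDC2 had 99.7%, 99.2% and 95.3% of their UMIs in the epithelium, beside 93.8% of the UMIs of all genes. The WFDC2 share was thus close to that of all genes. Its pooled level was 0.249 in immune cells, all from calf 3, and 0.119 in the epithelium. LTF was close to undetected, with 30 UMIs in all.

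**Figure D1:**
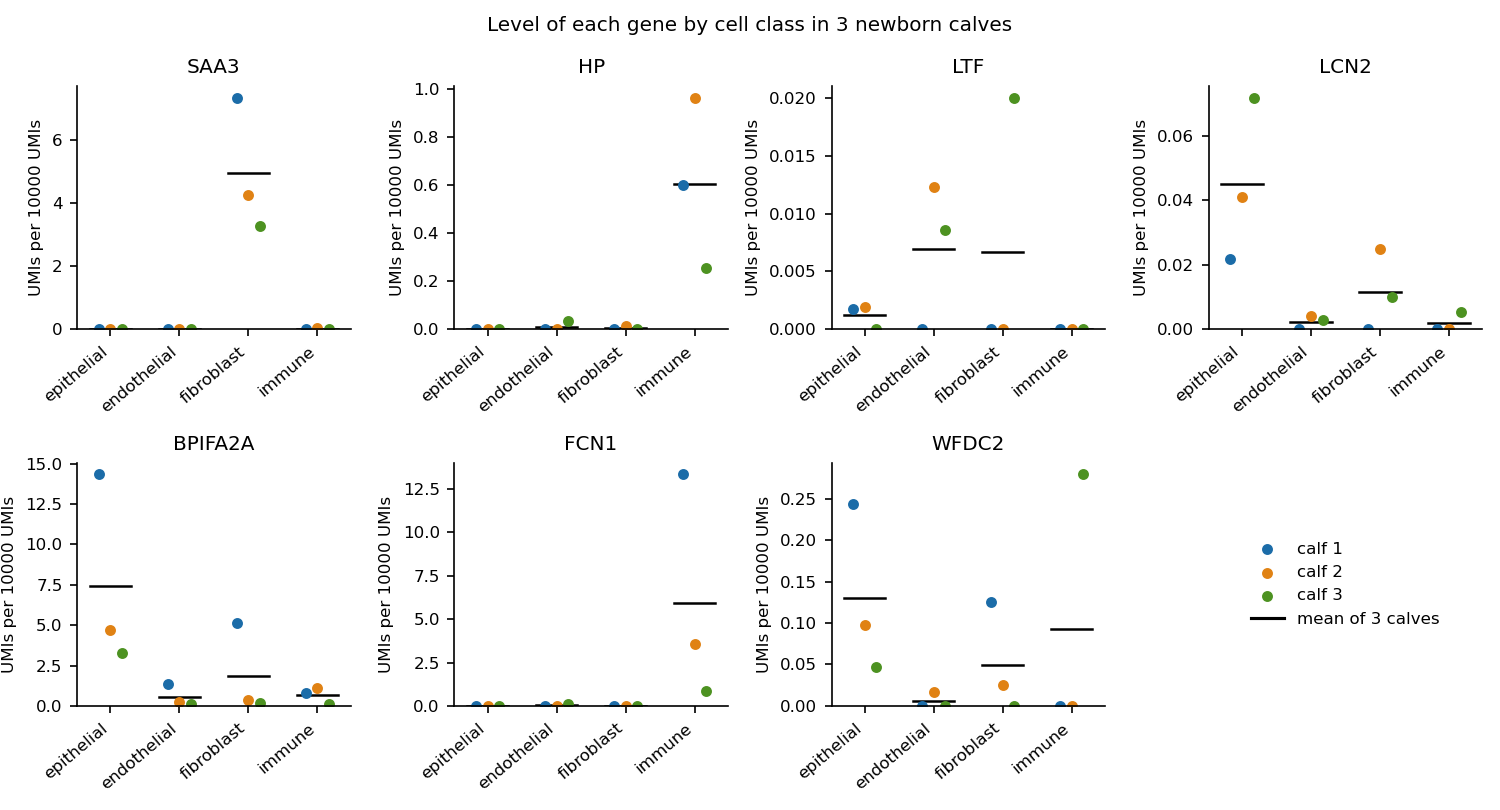
UMIs per 10000 UMIs of each of the 7 genes in the epithelial, endothelial, fibroblast and immune cells of each calf, with 1 point per calf. SAA3 stood highest in fibroblasts (3.28 to 7.36), HP and FCN1 in immune cells, and BPIFA2A in the epithelium (3.29 to 14.4).

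In tests of summed counts between classes (quasi-likelihood F test of edgeR, blocked by calf, with Benjamini-Hochberg adjustment over all 10230 genes tested), 5 of the 7 genes passed the filter on low counts, and LTF and LCN2 did not. SAA3 passed that filter through its counts in fibroblasts, and HP and FCN1 through theirs in immune cells. Their differences from those classes thus describe the source and are not separate support for it. Between epithelial and endothelial cells, 47.6% of all genes tested passed the threshold of 0.05. BPIFA2A and WFDC2 were higher in the epithelium there, FCN1 and HP were lower, and SAA3 missed the threshold. Between epithelial and fibroblast cells, where 37.6% of genes passed, BPIFA2A was higher and SAA3 lower, and the other 3 genes did not pass. Between epithelial and immune cells, where 48.4% of genes passed, BPIFA2A was higher, FCN1 and HP were lower, and WFDC2 and SAA3 did not pass.

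SAA3 was the stromal gene of the set. Serum amyloid A proteins are lipid-binding acute-phase proteins, and the SAA3 form is the one known from tissues outside the liver. Its level in fibroblasts was 7.36 in calf 1, 4.28 in calf 2 and 3.28 in calf 3, against 0.00516, 0.0091 and 0.0112 in the epithelium of the same calves. Every calf thus had far more SAA3 in fibroblasts. The epithelial minus fibroblast difference was -8.59 ± 0.382 on the log2 scale (SE, adjusted p = 2.98e-12). The endothelial class held 1 SAA3 UMI and the immune class 4. With the calves pooled, the fibroblast level of 3.88 was 441 times the epithelial level of 0.00879.

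Within the fibroblast class nearly all SAA3 came from 1 of 3 clusters (the plot of sources). The 138 barcodes of the cluster with MFAP5, a microfibril protein, and DLK1, a regulator of mesenchymal differentiation, among its leading genes held 728 of the 729 UMIs. The levels in this cluster were 18.4, 25.1 and 17.7 in the 3 calves. The 327 barcodes of the cluster with ACTA2, the smooth muscle actin of contractile stroma, held 1 UMI and the 324 of the cluster with CXCL14, a chemokine, held none. Even in the MFAP5 DLK1 cluster most barcodes had no SAA3. It was seen in 2, 23 and 20 barcodes of the 3 calves, 45 of 138, at 1 to 67 UMIs with a median of 10, and the thinned shares were 40%, 37.9% and 29.2% of only 5, 29 and 48 barcodes deep enough (28.6%, 35.4% and 30.3% of all 7, 65 and 66 without thinning). Among epithelial cells the thinned share of SAA3 was 0.112%, 0.176% and 0.118%. The median depth was 2063 UMIs in fibroblasts and 7622 in epithelial cells.

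**Figure D2:**
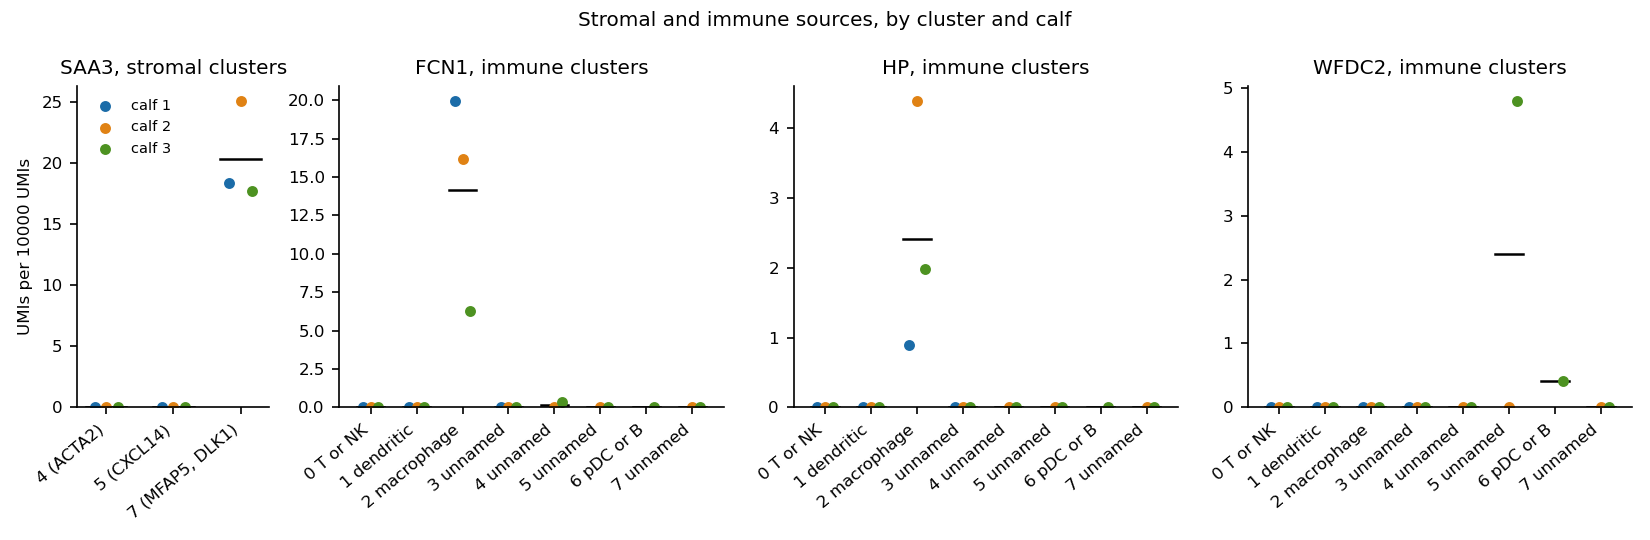
UMIs per 10000 UMIs of SAA3 in the 3 stromal clusters, and of HP, FCN1 and WFDC2 in the immune clusters, with 1 point per calf that had cells in the cluster and a black bar at the mean of those calves. SAA3 was confined to the MFAP5 DLK1 cluster but for 1 UMI, HP and FCN1 were highest in the macrophage-like cluster, and immune WFDC2 in 1 cluster of calf 3.

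The SAA3-positive and SAA3-negative barcodes of that cluster had medians of 2306 and 2221 UMIs, and the genes that follow were picked after their shares were seen, so they are a description. C4A, a complement component, was seen in 75.6% of positive and 44.1% of negative barcodes, SCARA5, a ferritin receptor, in 53.3% and 23.7%, and OSR1, a transcription factor of connective tissue progenitors, in 40% and 12.9%. TCF21, another mesenchymal transcription factor, went the other way, with 24.4% and 50.5%, as did FMOD, a collagen-binding proteoglycan, with 20.0% and 41.9%. MFAP5 (84.4% and 90.3%) and DLK1 (88.9% and 86.0%) were seen in most barcodes of both. CEBPD, a transcription factor of the acute-phase response, was seen in 97.8% and 89.2%. IL6, the main inducer of the acute phase in liver, and the mesothelial genes MSLN and WT1 had no UMI in any of the 138 barcodes, and the mesothelial gene UPK3B was seen in 2 of the 93 SAA3-negative ones.

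The genome holds a near-identical copy, listed in the files as M-SAA3, the mammary-associated form, which was added to the description after the data were seen. Reads that fit both copies would be lost or split, so both levels are uncertain. In fibroblasts SAA3 made up 98.2% of the UMIs of the pair (729 against 13), and 12 of the 13 M-SAA3 UMIs came from 1 barcode. In the epithelium the order was turned. SAA3 made up 14.9%, 21.5% and 19.7% of the pair there, with 162 UMIs in 81 cells against 677 UMIs in 268 cells, and 31 cells held both. The 2 sources of SAA3 thus differed in which copy prevailed, in each of the 3 calves.

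Epithelial SAA3 was sparse but not scattered evenly. In the 62 epithelial cells with 1 SAA3 UMI, M-SAA3 was seen in 27.4% and CFB, complement factor B, in 22.6%. In the 19 cells with 2 or more (4, 7 and 8 per calf), the shares were 73.7% and 57.9%, and in the 21030 cells with none they were 1.13% and 2.30%. None of those 19 cells had a UMI of COL3A1, the fibrillar collagen of fibroblasts, or of MFAP5. One spinous-like barcode of calf 3, with 27160 UMIs, held 24 of the 27 SAA3 UMIs of its state, 107 of the 114 M-SAA3 UMIs, 17 UMIs of CFB and 5 of LCN2. The cells with 2 or more SAA3 UMIs were deeper, with a median of 10261 UMIs against 7618 in the cells with none, and the part of depth was not tested.

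FCN1 and HP were immune genes. Ficolin 1 is a sugar-binding lectin that can start the lectin pathway of complement and is known from monocytes and neutrophils. FCN1 in immune cells stood at 13.4, 3.55 and 0.83 in the 3 calves. Calf 1 was highest and calf 3 lowest, but calf 1 had only 10 immune barcodes. In the epithelium FCN1 stood at 0.000198, 0.000303 and 0.00147. The epithelial minus immune difference was -11.89 ± 0.932 (SE, log2 scale, adjusted p = 2.37e-08, edgeR), lower in the epithelium in 3 of 3 calves. No FCN1 UMI was seen in fibroblasts. The pooled immune level of 1.25 was at least 78.3-fold higher than the level that 3 UMIs would give over all fibroblasts.

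Haptoglobin, which binds free haemoglobin, is an acute-phase protein of the liver and is also stored in granulocytes and monocytes. HP stood at 0.598, 0.964 and 0.255 in the immune cells of the 3 calves, from 3, 38 and 92 UMIs. In the epithelium it was not detected in calf 1 and had 2 UMIs each in calves 2 and 3. The epithelial minus immune difference was -10.39 ± 0.853 (SE, log2 scale, adjusted p = 1.28e-08, edgeR), again with lower values in the epithelium of 3 of 3 calves. The differences of both genes between epithelial and endothelial cells (-6.09 for FCN1 and -5.57 for HP, adjusted p = 0.000544 and 0.000379) rested on 1 endothelial barcode of calf 3. That barcode held all 35 FCN1 and all 12 HP UMIs of the class, with 3 UMIs of the leukocyte gene PTPRC and 3 of PECAM1, and without it the differences were 2.82 and 2.01 and did not pass (adjusted p = 0.723 and 0.666).

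All HP UMIs of the immune class, and 500 of the 507 FCN1 UMIs, lay in the macrophage-like cluster of 115 barcodes (5, 15 and 95 per calf). FCN1 stood at 19.9, 16.1 and 6.29 there and HP at 0.892, 4.38 and 1.98. The thinned shares of FCN1 were 60.0%, 53.3% and 17.9%, the last with an interval of 10.4% to 27.7%. FCN1 was seen in 32 barcodes at 1 to 63 UMIs with a median of 12, and HP in 14 with a median of 3 and a highest value of 43. All 14 HP-positive barcodes were also FCN1-positive. After thinning, 1, 5 and 6 barcodes held both genes, against 0.6, 2.67 and 1.07 expected if the genes had been independent within calf and cluster.

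**Figure D3:**
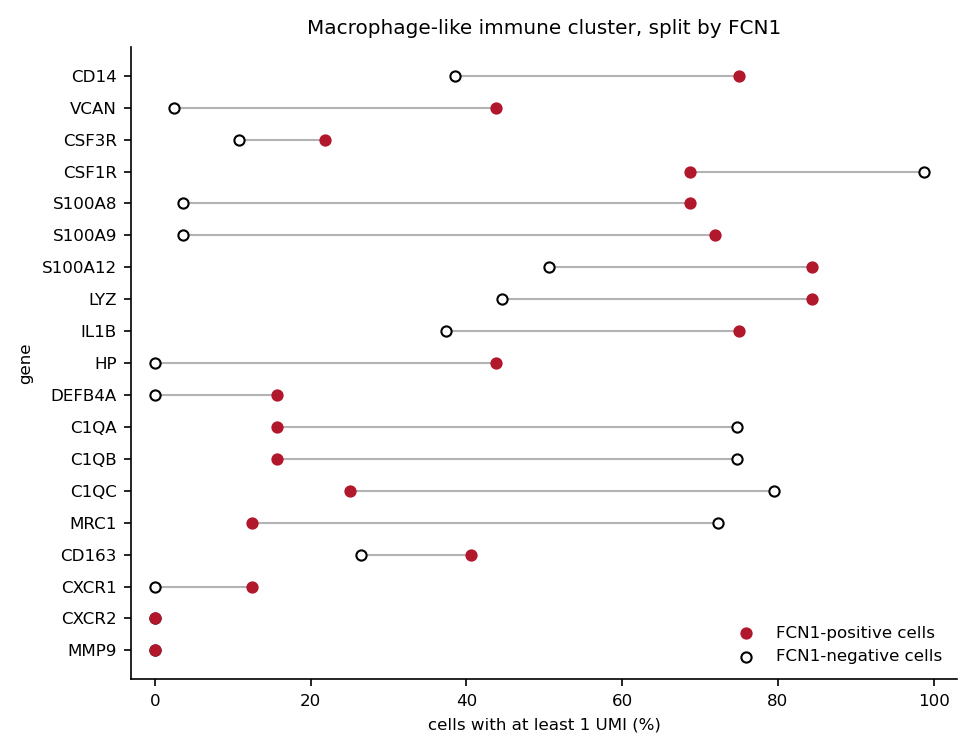
Percentage of FCN1-positive and of FCN1-negative barcodes of the macrophage-like immune cluster (32 and 83, calves pooled) with at least 1 UMI of marker genes. S100A8 and S100A9 were seen in 68.8% and 71.9% of positive barcodes and C1QA in 74.7% of negative ones.

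Within the macrophage-like cluster the FCN1-positive and FCN1-negative barcodes differed in the markers they held (the plot of marker shares in the macrophage-like cluster). The shares pool the calves, and S100A8, S100A9, IL1B, TIMD4 and DEFB4A were picked after their values were seen, so no test was made. S100A9 and S100A8, the calprotectin subunits of neutrophils and monocytes, were seen in 71.9% and 68.8% of the 32 positive barcodes and in 3.61% of the 83 negative ones each. VCAN, a proteoglycan of classical monocytes, was seen in 43.8% and 2.41%, CD14, the lipopolysaccharide co-receptor, in 75.0% and 38.6%, and IL1B, an inflammatory cytokine, in 75.0% and 37.3%. Several tissue macrophage genes ran the other way. C1QA, a subunit of complement C1q, was seen in 15.6% and 74.7%, MRC1, the mannose receptor, in 12.5% and 72.3%, and TIMD4, a receptor for dying cells, in 9.38% and 81.9%. The macrophage marker CD163 did not, with 40.6% and 26.5%. Among neutrophil markers CXCR2, MMP9 and MMP8 had no UMI in any of the 115 barcodes, and CXCR1 was seen in 12.5% and 0%. The positive barcodes were shallower (median 3578 UMIs against 5491), so the genes seen more often in them were seen more often at lower depth.

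The 14 HP-positive barcodes, all of which held FCN1, were compared in the same way. S100A8 and S100A9 were each seen in 92.9% of them and in 11.9% and 12.9% of the 101 HP-negative ones, and VCAN in 71.4% and 5.94%. C1QA, MRC1 and TIMD4 had no UMI in any of the 14, against 66.3%, 63.4% and 70.3% of the HP-negative barcodes, while CD163 was seen in 35.7% and 29.7%. DEFB4A, a beta-defensin, was seen in 15.6% of FCN1-positive and in none of the FCN1-negative barcodes.

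The iron-binding proteins were weak. Lactoferrin, a glycoprotein of milk, tears and neutrophil granules, gave 22 UMIs in the epithelium, each in a cell of its own, with 9, 13 and 0 in calves 1, 2 and 3. Of these 22, 13 lay in the spinous-like cluster, which held 59.1% of the epithelial LTF UMIs and 5.72% of all epithelial UMIs. The immune class held no LTF UMI, and the floor of 3 UMIs there was a level of 0.0083 in calf 3. The endothelial class held 6 UMIs and the fibroblasts 2. By level, LTF stood at 0.00178, 0.00197 and 0 in the epithelium and at 0, 0.0123 and 0.00855 in endothelial cells, the last 2 values being 3 UMIs each. At this depth LTF was not detectable in immune cells.

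Lipocalin 2, which binds bacterial siderophores, was epithelial and spread thinly. Its level was 0.0218, 0.0411 and 0.0718 in the epithelium of the 3 calves, lowest in calf 1 and highest in calf 3, the reverse of the order of BPIFA2A. It was seen in 784 of 21111 epithelial cells at no more than 5 UMIs, and 68 cells had 2 or more. The thinned shares were 0.315%, 0.914% and 1.38%. The 3 other classes together held 7 UMIs. No difference of LCN2 between epithelial states was detected, and at these low counts a modest one could be missed. Against the basal-like cells it differed by 0.11 ± 0.345 in spinous-like, -0.23 ± 0.275 in granule-like, 0.17 ± 0.31 in mitotic-like and 0.24 ± 0.268 in chemokine-high cells (SE, log2 scale), and none passed (lowest adjusted p = 0.536, edgeR).

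BPIFA2A was the most widely seen of the 7 genes. In cattle its protein, BSP30A, is best known from parotid saliva. The epithelium held 125473 of its UMIs, at levels of 14.4, 4.67 and 3.29 in the 3 calves, so calf 1 stood well above the others. The thinned shares were 80.2% (interval 79.0% to 81.3%), 36.1% (35.1% to 37.2%) and 31.8% (30.8% to 32.9%). No cell held more than 163 UMIs, and 4013 cells held 10 or more. The 2112 cells with the most of them, the top 10%, held 55.0% of the UMIs. Calf by calf, the top 10% held 33.6%, 58.5% and 56.7%. BPIFA2A was thus not confined to a few cells, but it was concentrated in calves 2 and 3, where most thinned cells had none.

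Outside the epithelium BPIFA2A stood at 1.37, 0.23 and 0.0998 in endothelial cells and at 5.11, 0.338 and 0.18 in fibroblasts, with thinned shares of 14.7%, 5.27% and 2.30% in endothelial cells. Calf 1 was highest and calf 3 lowest in both, as in the epithelium. The fibroblast level of BPIFA2A was 35.6%, 7.23% and 5.48% of the epithelial level, and that of the summed epithelial marker list was 52.5%, 9.02% and 5.93%. In endothelial cells the proportions were 9.52%, 4.93% and 3.04% for BPIFA2A and 8.10%, 4.76% and 3.09% for the list, and in immune cells 5.56%, 23.3% and 4.38% against 4.77%, 10.0% and 4.67%. The proportion for BPIFA2A exceeded that of the list most in the immune cells of calf 2. Of the 43 BPIFA2A UMIs there, 35 lay in 7 barcodes of 1 cluster, 25 of them in 1 barcode, and the leading genes of that cluster included the epithelial genes KRT15, COL17A1 and KRT5 and BPIFA2A itself. The part of epithelial RNA in the values outside the epithelium was not tested. The epithelial level exceeded the endothelial by 4.69 ± 0.484 (SE, log2 scale, adjusted p = 1.8e-07, edgeR), the fibroblast by 3.57 ± 0.486 (adjusted p = 9.33e-06) and the immune by 3.62 ± 0.489 (adjusted p = 6.65e-06), in 3 of 3 calves each. With doublets kept these differences were 2.65, 2.17 and 2.13 and still passed. Without the calf as a block the difference from fibroblasts was 3.01 and missed the threshold (adjusted p = 0.0602).

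The epithelium was divided into 14 clusters, of which markers named basal-like, spinous-like, granule-like, mitotic-like, S-phase and chemokine-high states. Basal cells divide on the basement membrane, spinous cells keratinise above them and granule cells form the tight barrier. The basal-like cluster (3189 cells) passed the naming rule by little and was led by LY6D, IGFBP3 and IL1R2. BPIFA2A was itself among its 10 leading genes, so the differences of BPIFA2A below are taken from a reference where it stood high. The granule-like cluster (4462 cells) was led by the immediate-early genes ATF3, FOSB and JUNB, which respond to stress and dissociation. The spinous-like cluster had 878 cells (274, 445 and 159) and was led by KRTDAP and SPINK5, genes of keratinocyte differentiation.

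BPIFA2A was highest in spinous-like cells in calves 2 and 3, and there the calves came together (the plot of epithelial clusters). Its level in spinous-like cells was 18.1, 14.4 and 15.8, a mean of 16.1 ± 1.83 (SD, n = 3), while in the epithelium as a whole the mean was 7.44 ± 6.03. In basal-like cells it was 16.4, 7 and 4.81. In calf 1 the highest levels were 21.3 in 71 cells of a small, shallow mitotic-like cluster and 20.0 in the larger mitotic-like one, so the spinous-like cells stood out in calves 2 and 3 more than in calf 1. Among the 11525 genes tested between spinous-like and basal-like cells, 39.1% passed the threshold, and BPIFA2A, WFDC2 and SAA3 passed among the 4 members tested, each being higher in spinous-like cells. The difference of BPIFA2A was 1.23 ± 0.309 (SE, log2 scale, adjusted p = 0.00356, edgeR), higher in 3 of 3 calves. Without calf 3 it was 0.87 (adjusted p = 0.0564), and without the calf as a block 0.89 (adjusted p = 0.522). With all epithelial clusters but the spinous-like and cycling ones as the reference, an alternative chosen after the data were seen, it was 1.95 (adjusted p = 0.000182).

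At the other end stood the chemokine-high cells (4111 cells), named from CXCL2, CXCL3, GRO1 and other inflammatory genes. BPIFA2A stood at 6, 1.50 and 0.964 there, the lowest of the clusters in calves 1 and 3. The cluster held 5.18% of the BPIFA2A UMIs of the epithelium and 16.6% of all epithelial UMIs. Between chemokine-high and basal-like cells 32.4% of genes passed. BPIFA2A was lower by -1.98 ± 0.315 (SE, log2 scale, adjusted p = 9.02e-05, edgeR) in 3 of 3 calves, and SAA3 was higher by 3.41 ± 1.29 (adjusted p = 0.0486) in 3 of 3 calves, a call lost without any 1 of the calves (adjusted p = 0.0686 to 0.139) or with DESeq2 (adjusted p = 0.0654). The BPIFA2A call was lost without the calf as a block (-1.76, adjusted p = 0.256) and where the calves were not aligned before clustering (-1.07, adjusted p = 0.201).

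In the granule-like contrast, where 16.4% of genes passed, none of the 4 members tested passed under edgeR or DESeq2. BPIFA2A stood at 13, 3.99 and 1.87 there, -0.68 ± 0.305 against basal-like cells (adjusted p = 0.134, unadjusted p = 0.037), the only one of the 4 with an unadjusted p under 0.05. It passed without calf 1 (-0.94, adjusted p = 0.0287) and with no filter on low counts (-0.69, adjusted p = 0.0238). In the mitotic-like contrast, where 32.6% of genes passed, none of the 4 passed under edgeR or DESeq2, and none had an unadjusted p under 0.05. BPIFA2A stood at 20.1, 6.55 and 6.78 in mitotic-like cells, a difference of 0.01 ± 0.304. It was 0.86 where the calves were not aligned (adjusted p = 0.396) and 0.75 against all epithelial clusters but the spinous-like and cycling ones (adjusted p = 0.0531).

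WFDC2 was highest in the spinous-like state. Its epithelial level was 0.244, 0.098 and 0.047, in the same calf order as BPIFA2A, with thinned shares of 3.75%, 1.25% and 0.999%. In spinous-like cells it was 1.12, 0.661 and 0.187, against 0.203, 0.0617 and 0.037 in basal-like cells. The spinous-like cluster ranked first in every calf. With the calves pooled it held 35.9% of the epithelial WFDC2 UMIs in 4.16% of the cells, but the share was uneven, with 34.6%, 50.8% and 10.3% in the 3 calves. In calf 3 the chemokine-high cluster, with 22.7% of the cells, held 24.5%. The difference was 2.98 ± 0.288 (SE, log2 scale, adjusted p = 1.2e-07, edgeR), higher in 3 of 3 calves, and it passed in each of the 13 alternatives, between 2.59 and 3.6. Still, only 239 of the 878 spinous-like cells held a WFDC2 UMI, up to 29 UMIs in a cell, and the thinned shares there were 11.6%, 7.79% and 4.58%.

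The SAA3 difference between spinous-like and basal-like cells (4.36 ± 1.37, log2 scale, adjusted p = 0.0163, edgeR, higher in 2 of 3 calves) rested on the 1 barcode described above. Without it the difference was 1.02 and did not pass (adjusted p = 0.676).

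WFDC2 also had a source outside the epithelium. In endothelial cells it had 4 UMIs and in fibroblasts 3, and the epithelial level exceeded the endothelial by 4.06 ± 0.947 (SE, log2 scale, adjusted p = 0.00159, edgeR). DESeq2 gave 4.63 there, which did not pass (adjusted p = 0.102). In immune cells WFDC2 was not detected in calves 1 and 2, where the floor of 3 UMIs was a level of 0.598 and 0.0761, and stood at 0.28 in calf 3, above the epithelial 0.047 of that calf. Of its 101 immune UMIs, 95 came from 20 of the 36 barcodes of 1 immune cluster, 35 of which were of calf 3. The level there was 4.79 and the thinned share 45.7% (interval 28.8% to 63.4%). The cluster was led by WFDC2, PECAM1, an adhesion molecule of endothelium and leukocytes, and GCM2, a transcription factor, among other genes, and could not be named from the marker lists. All 36 barcodes held CST3 and BOLA-DRA, genes of antigen-presenting cells. Of the 20 WFDC2-positive barcodes 95.0% held PECAM1 and 60.0% SPIB, a transcription factor of B and plasmacytoid cells (25.0% of the 16 others), and none held EPCAM or BPIFA2A. KRT15, an abundant keratin of this epithelium, was seen in 85.0% and 75.0%. With 1 calf carrying it, this source had no replicate check.

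Cells with a UMI of BPIFA2A were then compared with cells without one, on thinned and summed counts with the calf as a block, to describe the epithelial cells that carried it. The comparison took 3567, 3086 and 2423 positive cells. Of 10354 genes tested 7.30% passed, 441 (4.26%) higher and 315 (3.04%) lower (edgeR). Without the calf as a block no gene passed (edgeR, 183 at an unadjusted p under 0.05), and DESeq2 called 244. Of the 2 members tested neither passed, and 1 had an unadjusted p under 0.05. WFDC2 was higher by 0.62 ± 0.199 (log2 scale, adjusted p = 0.07, in 3 of 3 calves), and LCN2 differed by -0.01 ± 0.235 (adjusted p = 0.997). DESeq2 gave 0.59 for WFDC2 (adjusted p = 0.559) and no LCN2 value. WFDC2 passed where positive cells needed 2 UMIs (1.01, adjusted p = 0.00104).

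The genes named here are those with the largest differences that had 1 direction in all calves. S100A7, psoriasin, was higher by 2.13 ± 0.154 (adjusted p = 3.1e-08), KRT4, a keratin of differentiated mucosal epithelium, by 2.04 ± 0.118, KRTDAP by 1.81 ± 0.214 and SPINK5, a protease inhibitor of the barrier, by 1.76 ± 0.265. S100A8 and S100A9 were higher by 1.74 ± 0.146 and 1.60 ± 0.11. On the lower side stood RGS4, a regulator of G protein signalling, at -1.17 ± 0.144, CCN2, a matrix-associated growth factor, at -1.16 ± 0.107, CXCL3, a neutrophil chemokine, at -1.08 ± 0.0995 and DCN, a small matrix proteoglycan, at -0.88 ± 0.0803. DCN is a fibroblast gene as a rule, and here it stood at 3.89, 3.55 and 2.40 in the epithelium against 39.0, 51.8 and 43.2 in fibroblasts. When the spinous-like and cycling cells were left out, an alternative chosen after the data were seen, 310 genes passed and KRTDAP and SPINK5 differed by 0.04 and 0.03. In the largest epithelial cluster alone 17 genes passed.

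**Figure D4:**
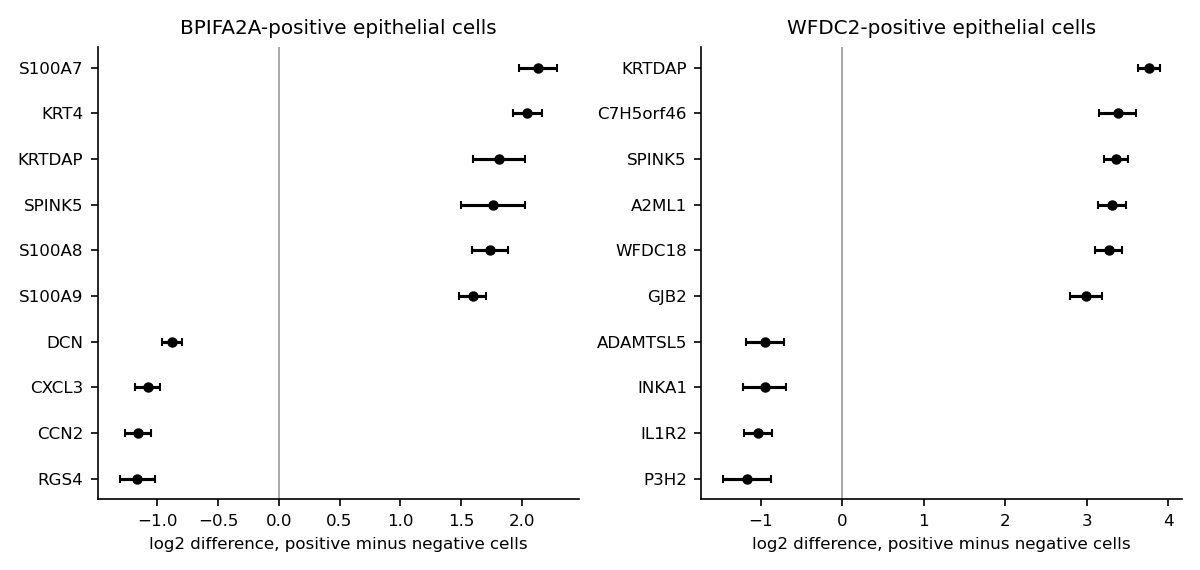
Log2 difference between epithelial cells with and without a UMI of BPIFA2A (left) or of WFDC2 (right) for the named genes. Bars are 1 SE of the edgeR fit and do not show the spread between the 3 calves. KRTDAP and SPINK5 stood above 0 in both comparisons.

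For WFDC2 the positive cells were fewer (167, 107 and 76), and of 9698 genes tested 1.31% passed, 91 (0.938%) higher and 36 (0.371%) lower (102 and 22 with DESeq2's size factors). Without the calf as a block no gene passed (edgeR, 338 at an unadjusted p under 0.05), and DESeq2 called 58. The 6 higher genes named by the same rule include KRTDAP and A2ML1, markers by which the spinous-like state was named. KRTDAP was higher by 3.76 ± 0.134, C7H5orf46 by 3.38 ± 0.224, SPINK5 by 3.36 ± 0.146, A2ML1, a protease inhibitor, by 3.31 ± 0.172, WFDC18, another whey acidic protein gene, by 3.27 ± 0.163 and GJB2, connexin 26, by 2.99 ± 0.197 (SE, log2 scale). The lower ones were P3H2, a collagen prolyl hydroxylase, at -1.17 ± 0.292, IL1R2, the decoy receptor for IL-1, at -1.04 ± 0.173, INKA1 at -0.95 ± 0.258 and ADAMTSL5 at -0.95 ± 0.233. The P3H2 call was lost without any 1 calf (adjusted p = 0.0549 to 0.149), the INKA1 call without calf 2 (0.466) or calf 3 (0.142), and the ADAMTSL5 call without calf 1 (0.217). BPIFA2A passed, higher by 0.57 ± 0.108 (adjusted p = 2.73e-05, edgeR) in 3 of 3 calves, and LCN2 did not (-0.47 ± 1.14). Without the spinous-like and cycling cells 66 genes passed, 3 higher and 63 lower, BPIFA2A differed by 0.15 (adjusted p = 0.902) and KRTDAP by -0.0676. Without calf 2 there were 55 genes, and BPIFA2A missed the threshold (0.36, adjusted p = 0.0764).

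Cell by cell, BPIFA2A and WFDC2 met about as often as their shares within clusters gave. Both were seen in 141, 57 and 26 thinned cells of the 3 calves, and 141, 48.4 and 26.1 were expected within calf and cluster. LCN2 and BPIFA2A met in 12, 24 and 39 cells, with 11.1, 28.0 and 35.1 expected. The gene profiles most like that of BPIFA2A over 37 sums of a calf and an epithelial cluster, each calf centred on its own mean, were those of PDK3, a kinase of pyruvate dehydrogenase (Pearson's r = 0.79), HS3ST6, a heparan sulfotransferase (0.77), CYB5A, cytochrome b5 (0.76), KRT4 (0.72) and SLC9A3R1, a scaffold of membrane transporters (0.72), out of 4391 genes. The sums share libraries and depth, and the values are a description. The other members were too low for this measure in at least 1 calf.

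The other secreted defence and acute-phase genes give the setting. Of 51 listed genes found in the files, M-SAA3 included, 17 rows passed the filter between classes. Beside backgrounds of 22.9%, 18.1% and 25.4% of genes higher in the epithelium, 9, 9 and 10 of the 17 were higher there than in endothelial, fibroblast and immune cells, and 4, 5 and 4 were lower (backgrounds of 24.8%, 19.4% and 23.0%). The medians over the tested rows were 2.65, 2.27 and 1.71, beside -0.01, 0.04 and 0.10 for all genes. The 4 genes of the list with the highest epithelial level were S100A12, calgranulin C, at 59.2, 57.4 and 39.5, S100A8 at 6.02, 9.12 and 3.53, S100A9 at 3.06, 5.20 and 1.35, and RNASE4, a secreted ribonuclease, at 1.80, 2.16 and 1.17. These are counts of 3′ ends, which do not scale with transcript length.

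Against basal-like cells 13 of 18 listed rows were higher in spinous-like cells and 2 were lower, with a median of 2.86 beside -0.06 for all genes and backgrounds of 19.2% higher and 19.9% lower. Among the higher ones were LYZ1, a lysozyme with 2 rows in the files, of which 1 was tested (8.23), PI3, an elastase inhibitor (7.75), WFDC18 (7.08), BPIFA2C, a salivary paralog of BPIFA2A (6.94) and LBP, which binds lipopolysaccharide (5.77). M-SAA3 was among them (3.09), with 107 of its 114 spinous-like UMIs in 1 barcode. BPIFA2C stood at 3.63, 5.86 and 4.38 in spinous-like cells and at 0.311, 0.495 and 0.193 in the epithelium as a whole, and reads that fit both paralogs would be lost or split between them. In chemokine-high cells 2 listed rows were higher and 6 lower (backgrounds of 16.3% and 16.1%), among the lower S100A12 (-3.60), S100A7 (-3.15) and S100A8 (-2.69). Of 14 listed rows tested, 5 were higher in BPIFA2A-positive cells (background 4.26%) and 6 in WFDC2-positive cells (background 0.938%), and none was lower in either (edgeR, adjusted). At an unadjusted p under 0.05, 1 was lower in each.

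Receptors and inducers of these proteins were listed as well. CD163, the receptor for haptoglobin bound to haemoglobin, was seen in immune cells at 0.399, 0.0761 and 0.155 and had 2 UMIs in the epithelium. SCARB1, a receptor for lipoproteins that also takes up serum amyloid A, was endothelial at 2.40, 3.07 and 1.59. SLC22A17, the lipocalin 2 receptor, was highest in fibroblasts at 0.624, 0.651 and 0.51. Of the 6 receptor rows tested 1, 0 and 1 were higher in the epithelium than in endothelial, fibroblast and immune cells, and 2, 2 and 3 were lower, beside the backgrounds of 22.9%, 18.1% and 25.4% higher and 24.8%, 19.4% and 23.0% lower. Against fibroblasts none was higher at an unadjusted p under 0.05 either. Of 16 inducer rows tested 4, 0 and 2 were higher and 6, 2 and 8 lower in the same order and beside the same backgrounds, again with none higher than in fibroblasts at an unadjusted p under 0.05 (edgeR).

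The chemokine-high cells, where BPIFA2A was lowest in calves 1 and 3, held more of the inducers. The state had been named from inflammatory genes such as CXCL8, TNFAIP3 and NFKBIA. Whether the inducers varied apart from those markers was not tested. Against basal-like cells 7 of 16 inducers were higher and 2 lower (backgrounds of 16.3% and 16.1%). Examples were IL6 (3.90, adjusted p = 3.28e-05), TNF (3.09, adjusted p = 0.00207), SOCS3, a feedback inhibitor of cytokine signalling (2.85), and NFKBIZ, a co-activator of NF-kB that drives LCN2 in other tissues (1.58, adjusted p = 0.000781). IL6R (-0.84) and IL6ST (-0.54), the receptor chains of IL-6, were lower. In granule-like cells 6 of 16 were higher and none lower, also at an unadjusted p under 0.05, beside backgrounds of 8.95% and 7.44% (edgeR). LCN2 did not pass in either contrast.

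Lists of other tissues that make such proteins were summed as well. The 5 salivary gland genes found of 8 listed reached 0.128, 0.0844 and 0.0677 in the epithelium and 0.0626 at most in any other class of a calf. The 6 liver genes reached 0.00476, 0.0109 and 0.00721 in the epithelium and 8.33, 9.27 and 6.34 in endothelial cells, nearly all of it APOA1, an apolipoprotein. The 4 red cell genes found of 5 listed stood at 0 in fibroblasts, at 0.0269 or less in the epithelium, and at 0, 0.38 and 0.0083 in immune cells.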

How the data were processed

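Single-cell RNA-seq counts of the rumen of 3 newborn calves were analysed as 1 group, with the calf as the replicate. The deposited matrices hold raw UMI counts per gene and barcode, which the authors made with Cell Ranger 3.1.0 on the ARS-UCD1.2 assembly. Barcodes with 500 to 4000 genes were kept where they had no more than 50000 UMIs, of which 40% or less came from 13 mitochondrial genes, and likely doublets were removed by a simulated-doublet score at a rate of 0.8% per 1000 barcodes (191, 908 and 879 barcodes). The calves were aligned with a Python implementation of Harmony and clustered (leidenalg 0.10.2) at resolution 0.1 for classes and 0.8 for epithelial and immune clusters. Clusters were named from fixed markers by a rule set after the clusters were seen. The 7 genes and the related lists were left out of clustering. The genes and lists were chosen with earlier results of these data known.

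Counts were summed per calf and group and tested with edgeR 4.0.16 (quasi-likelihood, TMM, calf as a block, Benjamini-Hochberg adjustment over all genes tested), with DESeq2 1.42.0 as an alternative. The sums pair by calf because they come from the same animal and library. An SE of edgeR is the absolute log2 difference over the square root of the F statistic. It does not measure the spread of the differences between single calves. For cells with or without a UMI of a gene, cells were thinned to 2000 UMIs, which left out shallower ones. There the named genes were the 6 with the largest positive and the 4 with the largest negative difference among genes past 0.05 with a symbol, at least 50 CPM on average and 1 direction in all calves. In the WFDC2 fit adjusted p-values were extremely small and are mostly left out, as they do not measure the spread between calves. Total UMIs per library were 82263092, 89803289 and 106145091. On simulated counts, 82.5% of genes changed 4-fold and 43.9% of those changed 2-fold between epithelial and endothelial cells were recovered (12250 genes fitted), and 64.9% and 20% between WFDC2-positive and WFDC2-negative cells (9502 genes fitted). Coordinates and sequences were not used here.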

Additional observations from a re-analysis of the deposited data

How the results depend on the processing

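Calf 1 gave few cells outside the epithelium and calf 3 most immune cells, so class differences outside the epithelium rest on unequal numbers. The basal-like reference is weakly named. With the limits on genes alone or resolution 0.4 no cluster was basal-like and the state contrasts could not be made. Without alignment, with the 7 genes kept in clustering, or at resolution 1.2 there was no granule-like contrast. Counting depth limits LTF, HP and FCN1, and the cause of the changes below was not tested. Of the alternatives to single genes 558 kept direction and side of the threshold, 81 lost the call, 13 gained it and 32 changed sign.

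Leaving out 1 calf, the number of genes past the threshold ranged from 2816 to 4952 against endothelial cells, 2031 to 4150 against fibroblasts and 2326 to 5399 against immune cells, each lowest without calf 3. It ranged from 2819 to 3644 for spinous-like, 261 to 1626 for granule-like, 2050 to 2980 for mitotic-like and 1844 to 3115 for chemokine-high cells, and from 312 to 781 for BPIFA2A-positive and 55 to 156 for WFDC2-positive cells. Without the calf as a replicate block 1930, 99, 1127 and 807 genes passed in the 4 state contrasts, and 0 for BPIFA2A-positive and WFDC2-positive cells (edgeR, 183 and 338 at an unadjusted p under 0.05).

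Without alignment 1850, 590 and 1186 genes passed for spinous-like, mitotic-like and chemokine-high cells. With the 7 genes kept in clustering 2616 and 1744 passed for spinous-like and mitotic-like cells, and at resolution 1.2 2259 for chemokine-high cells. For BPIFA2A-positive cells DESeq2 called 244 genes, thinning to 1000 UMIs gave 467, the largest cluster alone 17, and leaving out spinous-like and cycling cells 310. For WFDC2-positive cells the counts were 58 with DESeq2, 312 with no thinning and 66 without spinous-like and cycling cells. The split of higher and lower WFDC2 calls turned to 30 and 116 when 2 UMIs were needed, 52 and 67 on thinning to 1000 UMIs, 1 and 135 in the largest cluster and 78 and 78 without calf 1. With no thinning the mean epithelial shares were 3.55% for LCN2, 8.19% for WFDC2 and 0.115% for LTF, in place of 0.869%, 2.00% and 0.0153%.

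Signs changed mostly in values that had not passed. Leaving out 1 calf, the log2 difference from endothelial cells ranged from -6.41 to 1.93 for HP and -6.39 to 1.48 for FCN1, each positive without calf 3, and was 2.01 and 2.82 without 1 barcode. That of SAA3 from immune cells ranged from -2.24 to 0.74. In mitotic-like cells the ranges were -0.16 to 0.22 for BPIFA2A and -0.45 to 0.34 for WFDC2, in chemokine-high cells -0.32 to 0.78 for LCN2 and -0.62 to 0.26 for WFDC2, and for LCN2 -0.28 to 0.30 in BPIFA2A-positive and -0.19 to 0.37 in WFDC2-positive cells. FCN1 against fibroblasts was -3.10 with DESeq2. LCN2 in spinous-like cells was -0.22 with doublets kept, -0.0819 with the 7 genes kept, -0.0464 at resolution 1.2 and -0.0912 without 1 barcode. In mitotic-like cells WFDC2 was 0.0035 with DESeq2, 0.52 without alignment, 0.31 with the 7 genes kept and 0.18 with the wide reference, and BPIFA2A was -0.0057 without the block and -0.10 at resolution 1.2. LCN2 in chemokine-high cells was -0.0536 with the 7 genes kept and -0.21 at resolution 1.2. LCN2 in BPIFA2A-positive cells was 0.0072 with DESeq2's size factors, 0.0242 with the gene limits alone, 0.0060 without alignment, 0.00495 with the 7 genes kept and 0.14 when 2 UMIs were needed. In WFDC2-positive cells BPIFA2A was -0.15 in the largest cluster and KRTDAP -0.0676 without spinous-like and cycling cells. The wide reference, the single barcodes and the omission of spinous-like and cycling cells were chosen after seeing the data.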
